A study of Solanum lycopersicum with 17 samples.

Results

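The 14-3-3 genes TFT7, LOC543565 and TFT3 were followed in tomato fruit that had formed with and without fertilization. They were chosen by the symbols that the array's annotation gives them (NCBI gene 544213 for TFT7, 543565 for LOC543565 and 543965 for TFT3), and each had 1 probe set. These are 3 of 10101 probe sets tested and 3 of the 8 named 14-3-3 genes on the array. LOC543565 is known here only by that number, and RefSeq gives it the synonym TFT without a number. In RefSeq's annotation of assembly SLM_r2.1 all 3 genes lie on chromosome 4, with 29 annotated genes between TFT7 and TFT3 and 1635 between TFT7 and LOC543565. The files of the series themselves name no genome build, so no coordinates are given.

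RNA was measured on 17 Affymetrix tomato arrays. Controls were wild-type fruit with its seeds (3 arrays) and wild-type fruit whose seeds had been taken out by hand (3 arrays). They were compared with 4 transgenic parthenocarpic lines, of which INO-IaaM, INO-RolB and DefH9-IaaM had 3 arrays each and DefH9-RolB had 2. Of the bacterial transgenes, iaaM makes an auxin precursor and rolB changes how plant cells respond to auxin. The INO promoter comes from a gene of the ovule's outer integument in Arabidopsis, and the DefH9 promoter drives expression in placenta and ovules. Each array holds RNA of a pool of 8 fruits and stands for 1 plant, per the labels. The labels give neither the number of independent transformants behind a line, nor the age of the fruit, nor the part of the fruit that was taken.

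14-3-3 proteins are small adaptor proteins that act as dimers. They bind phosphorylated serine or threonine in other proteins and thereby change the activity, the place or the stability of those partners. In plants they are known for activating the plasma membrane proton pump and for holding nitrate reductase and sucrose-phosphate synthase in check. They are also known for joining the flowering signal to its transcription factor. In tomato the family is called TFT. TFT7 is known as a partner of kinases of the MAP kinase cascade in immunity-related cell death, and TFT3 is another member of the family.

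The values are log2 RMA values, so a difference of 1 is a doubling, and a level can be compared between arrays for 1 probe set but not between probe sets. Array medians lay between 8.37 and 8.43, and arrays within a group correlated at 0.986 to 0.995. Of 63 reporter probe sets, 61 were taken as those for sequences not in these plants, and the others were left out by name. The 61 ranged from 2.45 to 5.49, and each of the 8 14-3-3 genes lay above that range on every array. Of 9 seed markers 7 were found, and the log2 of their summed level was 13.55 to 14.24 with seeds, 10.25 to 11.66 with seeds removed and 9.53 to 12.18 in the lines. Most of the 9 were listed as known to move with seeds in these data, so the fall of the sum is no independent check. The markers did not all follow the sum: TAS14, a dehydrin gene, averaged 10.46 with seeds, 8.70 with seeds removed, 8.47 and 8.91 in the IaaM lines, and 11.17 and 11.44 in the RolB lines. MAN2 averaged 3.97 with seeds, 4.04 with seeds removed, 5.66 in INO-IaaM, 4.04 in DefH9-IaaM, 4.33 in INO-RolB and 4.96 in DefH9-RolB. MAN1 averaged 3.35 with seeds and 3.52 with seeds removed, so neither fell with seed removal. From 1 to 4 of the 7 lay within the reporter range in each group, MAN1 in all groups. All 7 fruit markers were found, at a log2 summed level of 15.93 to 16.17 on all arrays. Their sum is carried by abundant members, and TPRP-F1 lay within the reporter range in both controls (3.77 and 4.47) and at 6.01 to 7.12 in the line means. The part of these markers in the TFT7 difference was not tested. RNA quality was followed by the 5' signal minus the 3' signal of the array's actin and gapdh controls. It was -0.92 to -0.57 in the controls and -0.70 to -0.34 in the lines, so it moved with the comparison of lines and controls. Precision is limited by the number of arrays.

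TFT7 RNA was higher in the parthenocarpic lines than in either control, and removing the seeds from wild-type fruit made no detectable difference to it. In wild-type fruit with seeds TFT7 read 12.32, 12.71 and 12.61 on the 3 arrays. With seeds removed it read 12.55, 12.67 and 12.66. The ranges of the controls overlapped, and the lowest array was the first of those with seeds.

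INO-IaaM fruit gave 13.09, 13.12 and 13.12 for TFT7, and DefH9-IaaM fruit 13.18, 13.03 and 13.24. INO-RolB fruit gave 13.06, 13.17 and 13.09, and DefH9-RolB fruit 12.83 and 13.12. All 11 line arrays, at 12.83 to 13.24, therefore lay above all 6 control arrays, at 12.32 to 12.71. TFT7 was the only one of the 3 genes with this separation, which 2.73% of all probe sets showed in this direction. The line arrays averaged 13.09 ± 0.11 (SD, n = 11), against 12.59 ± 0.14 (SD, n = 6) for the control arrays.

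The mean of the 4 lines was above the control with seeds by 0.54 ± 0.08 (SE), a 1.45-fold level with a 95% interval of 1.28 to 1.65, and limma's adjusted p was 0.000605. Against the control with seeds removed the difference was 0.46 ± 0.08, or 1.37-fold (1.21 to 1.56), with limma's adjusted p of 0.00434. TFT7 was thus the 1 of the 3 genes called in each of these comparisons, where 29.7% and 17.1% of all probe sets were called, 17.3% and 8.71% of all as higher. With 3 genes, 1 call is not set apart from that background and is no result about the family. In bulk RNA such as this, more cells of a type and more RNA per cell cannot be told apart.

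**Figure D1:**
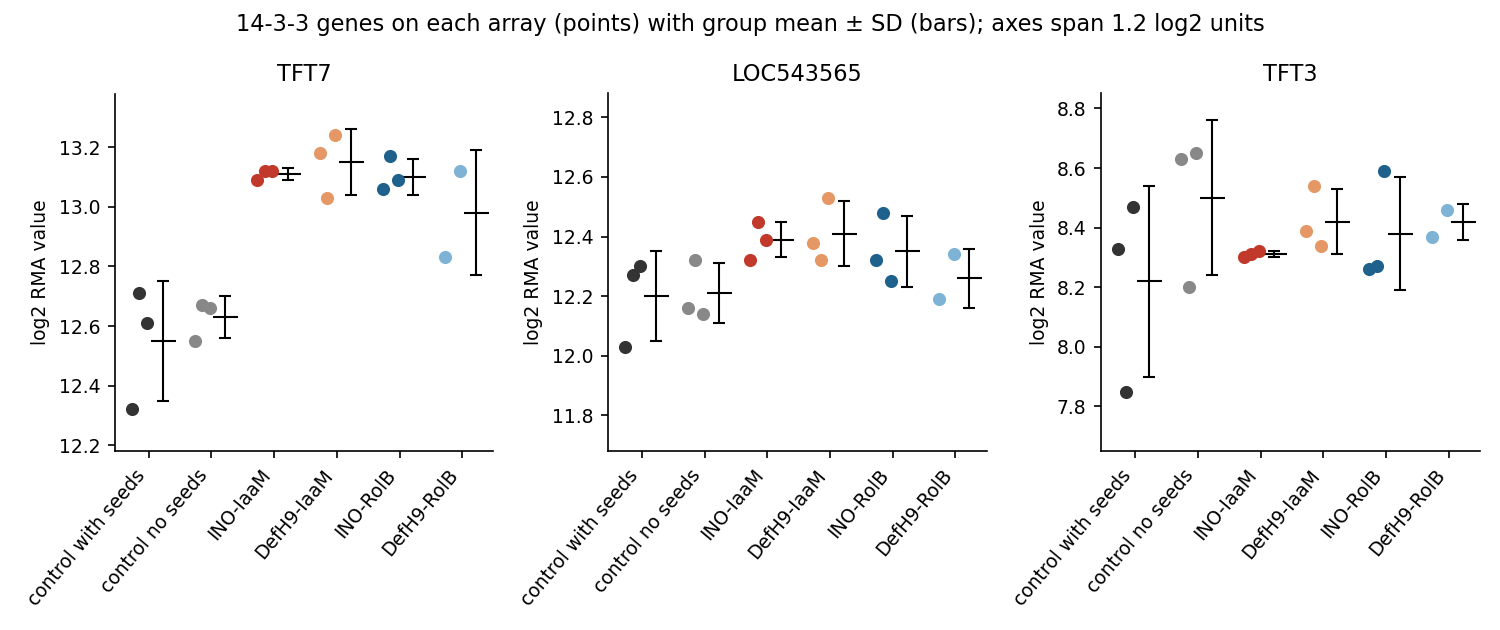
The log2 RMA value of TFT7, LOC543565 and TFT3 on each array (points, in replicate order within a group), with the group mean and SD (bars; DefH9-RolB has 2 arrays, the other groups 3). Each vertical axis spans the same range of log2 units around its own gene. All TFT7 points of the lines, at 12.83 and above, lie over those of the controls, at 12.71 and below, while the groups overlap for LOC543565 and TFT3.

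Between the controls, TFT7 was 0.08 ± 0.11 higher without seeds (95% interval -0.15 to 0.31, limma's adjusted p 0.794). None of the 3 genes was called in that comparison, where 4.33% of all probe sets were, 1.02% as higher and 3.31% as lower. The interval for TFT7 lies below the estimates of its difference in the mean of the lines. The 95% intervals of those estimates were 0.35 to 0.72 over fruit with seeds and 0.27 to 0.64 over seeds removed. The second of these overlaps the interval between the controls, and the contrasts were not tested against each other.

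Each line was also set against each control. Against fruit with seeds, TFT7 was higher in INO-IaaM by 0.56 ± 0.11 (1.48-fold, limma's adjusted p 0.00376), in DefH9-IaaM by 0.60 ± 0.11 (1.52-fold, 0.00237), in INO-RolB by 0.56 ± 0.11 (1.47-fold, 0.00319) and in DefH9-RolB by 0.43 ± 0.12 (1.34-fold, 0.0267). The background of calls in these comparisons was 16.1%, 17.6%, 21.6% and 16.2% of all probe sets, in the same order, and that of higher calls 8.24%, 9.5%, 11.9% and 8.89%. TFT7 therefore passed in all 4 lines. The call in DefH9-RolB ended without its second array (0.28, adjusted p 0.252) and without the first (0.31, 0.0879) or the third (0.46, 0.0512) array with seeds.

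Against fruit with seeds removed, the TFT7 differences were 0.48 in INO-IaaM (limma's adjusted p 0.0200), 0.52 in DefH9-IaaM (0.0170), 0.48 in INO-RolB (0.0167) and 0.35 in DefH9-RolB (0.0838). TFT7 thus passed in 3 lines and missed in DefH9-RolB, whose difference ranged from 0.20 (without its second array) to 0.49 (without its first), in comparisons where 5.74%, 4.98%, 10.1% and 8.53% of all probe sets were called, in the same order, 2.05%, 1.84%, 4.81% and 4.49% as higher. These single-line calls were near the threshold. That of INO-IaaM ended when any 1 of 5 arrays was left out, that of DefH9-IaaM with any 1 of 3 and that of INO-RolB with any 1 of 2, while the differences stayed between 0.44 and 0.58. The first array with seeds removed was among these arrays for each line, and the others were arrays of the line itself, apart from the third array with seeds removed for INO-IaaM.

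The order of the TFT7 means was DefH9-IaaM (13.15), INO-IaaM (13.11), INO-RolB (13.10), DefH9-RolB (12.98), the control with seeds removed (12.63) and the control with seeds (12.55). Neighbours in this order overlapped except for DefH9-RolB and the control with seeds removed. Between the lines themselves no difference was detected. IaaM lines minus RolB lines gave 0.09 ± 0.08 (95% interval -0.08 to 0.26, limma's adjusted p 0.589), and DefH9 lines minus INO lines gave -0.05 ± 0.08 (-0.22 to 0.13, adjusted p 1.0). The promoter by transgene interaction was 0.17 ± 0.16 (-0.18 to 0.51, adjusted p 0.998). Of all probe sets, 2.92% were called between the transgenes (0.99% higher and 1.93% lower in IaaM) and 0 between the promoters or in the interaction, and for none of the 3 genes was the unadjusted p under 0.05 in any of these comparisons.

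With that measure of RNA quality as a covariate, TFT7 in the mean of the lines was above the control with seeds by 0.48 (limma's adjusted p 0.0271) and the control with seeds removed by 0.41 (0.0566), so the second call ended. Of the single lines only INO-IaaM (0.51, 0.0335) and DefH9-IaaM (0.55, 0.0210) against fruit with seeds kept theirs.

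**Figure D2:**
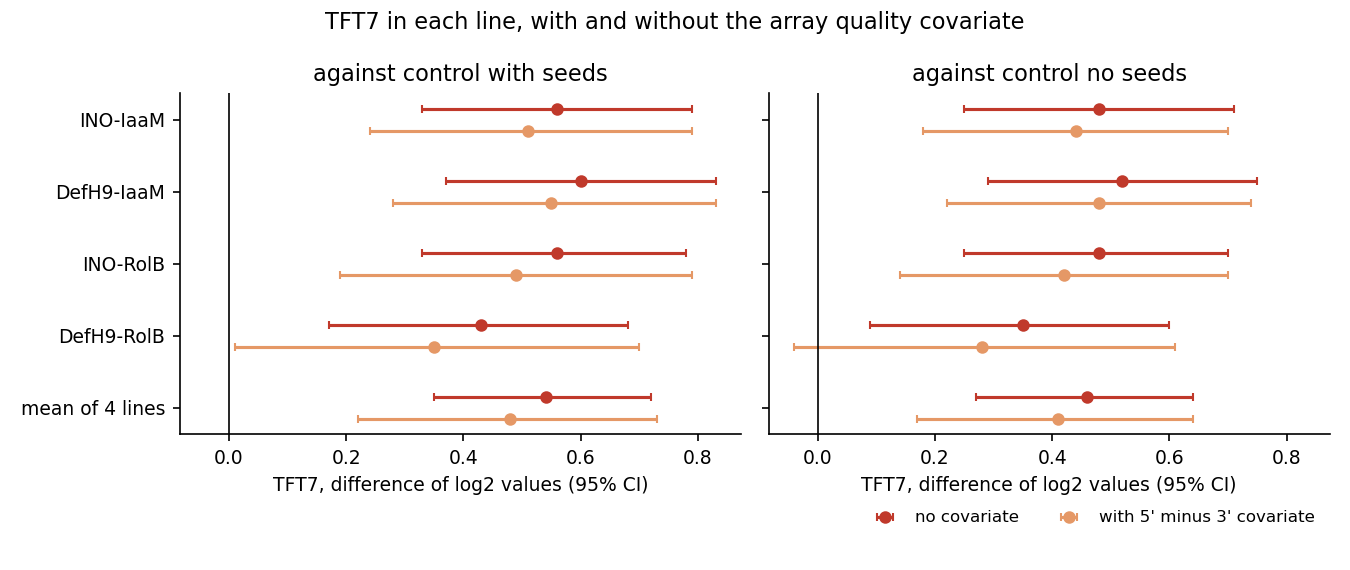
The difference of TFT7 log2 values between each line, or the mean of the 4 lines, and the control with seeds (left) or with seeds removed (right), without (red) and with (orange) the covariate of 5' minus 3' signal. Points are estimates and bars 95% confidence intervals from the limma fit. The points lie between 0.28 and 0.60, and the only bar that reaches below 0 is that of DefH9-RolB against the control with seeds removed with the covariate.

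LOC543565 RNA was on average 1.11-fold higher in the lines than in either control, a difference that did not pass the test. In fruit with seeds it read 12.03, 12.27 and 12.30, and with seeds removed 12.16, 12.32 and 12.14. The lines gave 12.32, 12.45 and 12.39 (INO-IaaM), 12.38, 12.32 and 12.53 (DefH9-IaaM), 12.32, 12.48 and 12.25 (INO-RolB), and 12.19 and 12.34 (DefH9-RolB). The highest values were those of IaaM and INO-RolB fruit, and the lines, at 12.19 to 12.53, overlapped the controls, at 12.03 to 12.32.

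The mean of the lines was above the control with seeds by 0.15 ± 0.08 for LOC543565 (95% interval -0.02 to 0.32, limma's adjusted p 0.160), and above the control with seeds removed by 0.15 ± 0.08 (-0.02 to 0.32, adjusted p 0.218). DefH9-IaaM against fruit with seeds came nearest to a call at 0.21 ± 0.10, with an unadjusted p of 0.0490 and limma's adjusted p of 0.147. Without the first array with seeds, the difference of the mean from that control was 0.07 (adjusted p 0.637), and without the other single arrays it was up to 0.20. The controls differed by 0.01 ± 0.10 (-0.20 to 0.22). All neighbours in the order of the LOC543565 means overlapped. That order, DefH9-IaaM, INO-IaaM, INO-RolB, DefH9-RolB, seeds removed, with seeds, was the same as for TFT7.

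TFT3 RNA showed the widest spread of the 3 genes within the controls and no call. It read 8.33, 7.85 and 8.47 with seeds, and 8.63, 8.20 and 8.65 with seeds removed. INO-IaaM gave 8.30, 8.31 and 8.32, DefH9-IaaM 8.39, 8.54 and 8.34, INO-RolB 8.26, 8.27 and 8.59, and DefH9-RolB 8.37 and 8.46. The second array of each control was its lowest, and all line arrays, at 8.26 to 8.59, lay within the control range of 7.85 to 8.65.

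The TFT3 mean of the lines was 0.17 ± 0.12 above the control with seeds (95% interval -0.10 to 0.44, limma's adjusted p 0.343) and 0.11 ± 0.12 below the control with seeds removed (a difference of -0.11, -0.38 to 0.15, adjusted p 0.569). The second sign turned with the 5' minus 3' covariate, to 0.09. Without seeds TFT3 read 0.28 ± 0.16 above fruit with seeds (-0.06 to 0.62, adjusted p 0.424). Same-numbered control arrays deviated together, as did those of INO-IaaM and DefH9-RolB, and the pairing of the controls is inferred from the data. Within these control pairs TFT3 differed by 0.31, 0.35 and 0.19. A fit of the controls alone with the pairs as a block, chosen after the data had been seen, gave 0.28 ± 0.08 (0.07 to 0.49), with an unadjusted p of 0.0180 and limma's adjusted p of 0.137, so TFT3 was higher without seeds in 3 of 3 pairs and was not called. Neighbours in the order of its group means overlapped throughout, from seeds removed (8.50) at the top to with seeds (8.22) at the bottom.

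The other 5 named 14-3-3 genes were tft8, TFT6, TFT9, tft4 and tft10, and of these only tft8 passed in any comparison. It read 11.12, 11.34 and 11.08 with seeds and 11.14, 11.34 and 11.37 with seeds removed. The lines gave 11.45, 11.56 and 11.74 (INO-IaaM), 11.63, 11.34 and 11.72 (DefH9-IaaM), 11.24, 11.40 and 11.50 (INO-RolB), and 11.52 and 11.67 (DefH9-RolB). The lowest line array, the first of INO-RolB, lay below the highest control arrays, so the groups overlapped.

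For tft8 the mean of the lines was above the control with seeds by 0.35 ± 0.10 (1.28-fold, limma's adjusted p 0.0161), and the same comparison passed for INO-IaaM (0.40, 0.0383) and DefH9-IaaM (0.39, 0.0426). Against seeds removed it was 0.25 (0.0977), which did not pass. All 3 calls ended with the covariate or without the first or the third array with seeds, and those of the single lines also in a fit of the compared groups alone (adjusted p 0.0792 and 0.128) and without some arrays of the lines. For the mean the values were 0.21 (0.311) with the covariate, 0.32 (0.0781) without the first and 0.30 (0.0943) without the third array with seeds, and with the covariate the single lines read 0.29 (0.221) and 0.27 (0.230).

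TFT9 lay at 12.54 to 12.81 over all arrays, tft4 at 12.71 to 12.86, tft10 at 12.81 to 13.19 and TFT6 at 8.83 to 9.70. Their mean differences between lines and the control with seeds were 0.01 ± 0.06, 0.02 ± 0.05, 0.02 ± 0.06 and -0.22 ± 0.17, none called. tft10 came nearest to a call against the control with seeds removed, at -0.14 ± 0.06 with limma's adjusted p of 0.154. Against either control, the 95% intervals of TFT9, tft4 and tft10 reached no higher than 0.16, while those of TFT6 reached from -0.59 to 0.23.

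Over all 8 genes, 2 were called higher and 0 lower in the mean of the lines compared with the control with seeds, and 1 higher and 0 lower against seeds removed, beside 17.3% and 8.71% of all probe sets called higher and 12.4% and 8.43% called lower. The median difference of the 8 genes was 0.09 and -0.04 in these comparisons, beside 0.05 and 0.03 over all probe sets tested. Between the controls limma called 0 of the 8 genes, beside 4.33% of all probe sets, and for 0 of them was the unadjusted p under 0.05, while with the controls as pairs it was under 0.05 for TFT3 alone. The probes of these related genes were not compared here, so whether 1 gene's RNA reaches another's probe set was not tested.

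**Figure D3:**
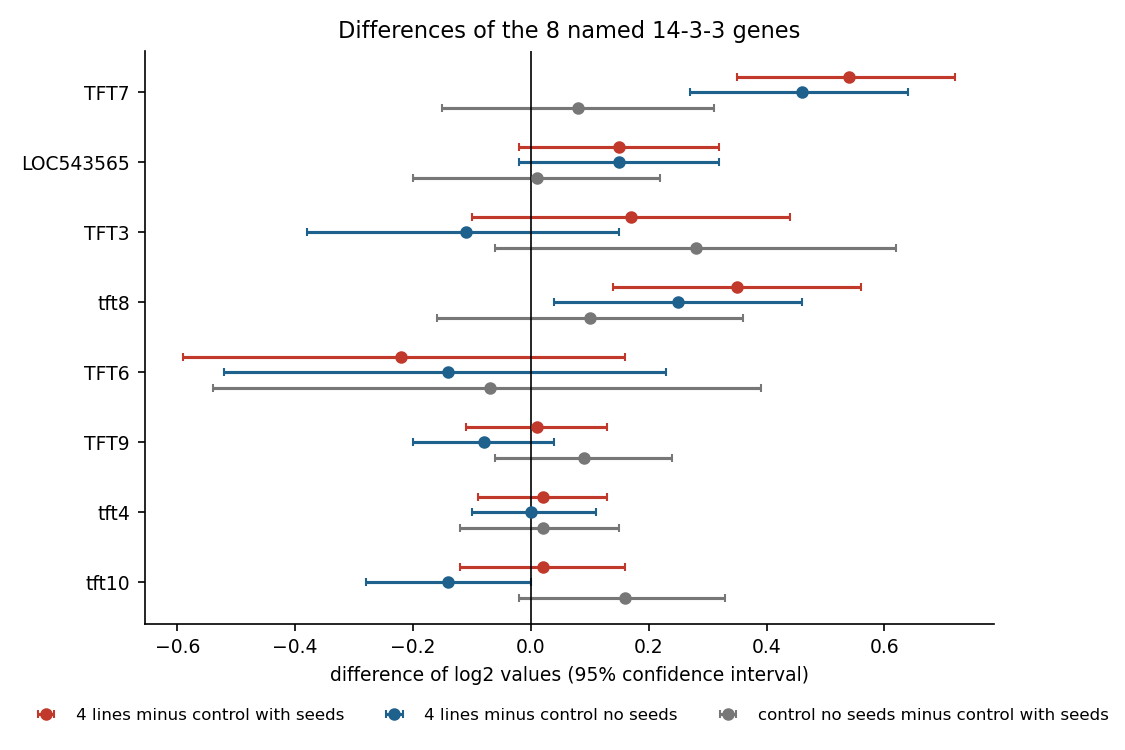
Differences of log2 values for the 8 named 14-3-3 genes, for the mean of the 4 lines minus the control with seeds (red) and with seeds removed (blue), and for the controls against each other (grey). Points are estimates and bars 95% confidence intervals of the limma fit. Only TFT7 has both the red and the blue bar well above 0, at 0.54 and 0.46, and tft8 follows at 0.35 and 0.25.

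The step of TFT7 was also set against those of its relatives within each array. These differences were chosen after the values had been seen, so they are given as a description with no test. TFT7 minus the mean of the other 5 genes was 0.51 higher in the lines than with seeds and 0.49 higher than with seeds removed, and TFT7 minus LOC543565 was 0.38 and 0.31 higher. In these 4 comparisons no line array overlapped a control array. TFT7 by itself already had this separation from both controls, as did 2.73% of all probe sets in this direction. How often such differences between other genes separate likewise was not counted.

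TFT7 minus TFT3 was 0.38 higher in the lines than with seeds and 0.58 higher than with seeds removed, and TFT7 minus tft8 was 0.20 and 0.22 higher, with overlap in each case. LOC543565 minus the other 5 genes differed by 0.12 and 0.18, and TFT3 minus the other 5 by 0.13 and -0.10, also with overlap.

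Within groups, TFT7 and LOC543565 moved together from array to array. The deviations of the 17 arrays from their group means had a Pearson correlation of 0.802 for this pair, 0.642 for TFT7 and tft8, and -0.387 for TFT7 and TFT3. TFT3 went with TFT9 instead, at 0.815. The first array with seeds was the lowest for both TFT7 (12.32) and LOC543565 (12.03). These correlations are descriptions over arrays that share hybridization and normalization. How often other pairs of probe sets reach such values was not counted.

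The genes most like each of the 3 in their group means were sought among 369 probe sets with 1 gene name, group means spanning at least 0.5 and a highest mean above the reporters, by Pearson correlation over 6 group means. The genes most like TFT7 were MDHAR, which encodes monodehydroascorbate reductase of the ascorbate cycle (r = 0.989), LOC544237 (0.982) and HY5, a light-signalling transcription factor (0.978). Over all 17 arrays the correlations were 0.916, 0.870 and 0.819. They rest largely on the step from controls to lines that these genes share. Genes picked by likeness to such a step tend to pass a test of it. The tests of lines against controls for the genes most alike are therefore given as descriptions.

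MDHAR had group means of 7.61 with seeds, 7.77 with seeds removed, 8.37 in INO-IaaM, 8.33 in DefH9-IaaM, 8.27 in INO-RolB and 8.22 in DefH9-RolB. Its mean in the lines was higher by 0.69 ± 0.13 than with seeds (1.61-fold, limma's adjusted p 0.00189) and by 0.53 ± 0.13 than with seeds removed (1.44-fold, 0.0152). LOC544237 was higher by 0.42 (0.0113) and 0.38 (0.0285). HY5 was higher by 0.63 than with seeds (0.0426), and its 0.49 over seeds removed did not pass (0.136). With the RNA quality covariate the calls of MDHAR (0.38, adjusted p 0.102, and 0.28, 0.241), LOC544237 (0.33, 0.178, and 0.31, 0.227) and HY5 (0.47, 0.349) ended. Without the first array with seeds, HY5 (0.43, 0.243) and LOC544237 (0.32, 0.0847) also lost theirs over fruit with seeds, and HY5 lost it without any 1 of most other arrays, with the replicate block (0.63, 0.0641) and in a fit of the compared groups alone (0.63, 0.0610). Without the first or the third array with seeds removed, so did MDHAR (0.50, 0.0708, and 0.39, 0.109) and LOC544237 (0.30, 0.159, and 0.40, 0.0882) over that control.

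Most like LOC543565 were WRKYIId-4, a WRKY transcription factor (r = 0.986), NOR, the ripening regulator NON-RIPENING (0.980), and gtsatom (0.971). Over 17 arrays these fell to 0.509, 0.759 and 0.658. NOR differed far more than LOC543565 itself, with 0.70 ± 0.11 over fruit with seeds (1.63-fold, limma's adjusted p 0.000421) and 0.48 ± 0.11 over seeds removed (1.39-fold, 0.00961). WRKYIId-4 was higher by 0.65 (0.00829) and 0.51 (0.0436). Over seeds removed, NOR lost its call with the covariate (0.30, 0.153) and without the third array with seeds removed (0.42, 0.0621), and WRKYIId-4 lost it without any 1 of most arrays (each array with seeds removed among them), with array weights (0.43, 0.0597), after a second quantile normalization (0.45, 0.0681) and with the replicate block (0.51, 0.0632). Over fruit with seeds, the call of NOR held under all settings run, and that of WRKYIId-4 ended without the second array with seeds (0.50, 0.0567).

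For TFT3 the likeness was weaker, with the subtilisin-like protease genes SBT1 (r = 0.908) and sbt3 (0.897) and the divinyl ether synthase gene DES (0.873), and correlations of 0.466, 0.341 and 0.255 over 17 arrays. All 3 had their lowest mean with seeds. None was called between the controls or in the mean of the lines against either control.

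**Figure D4:**
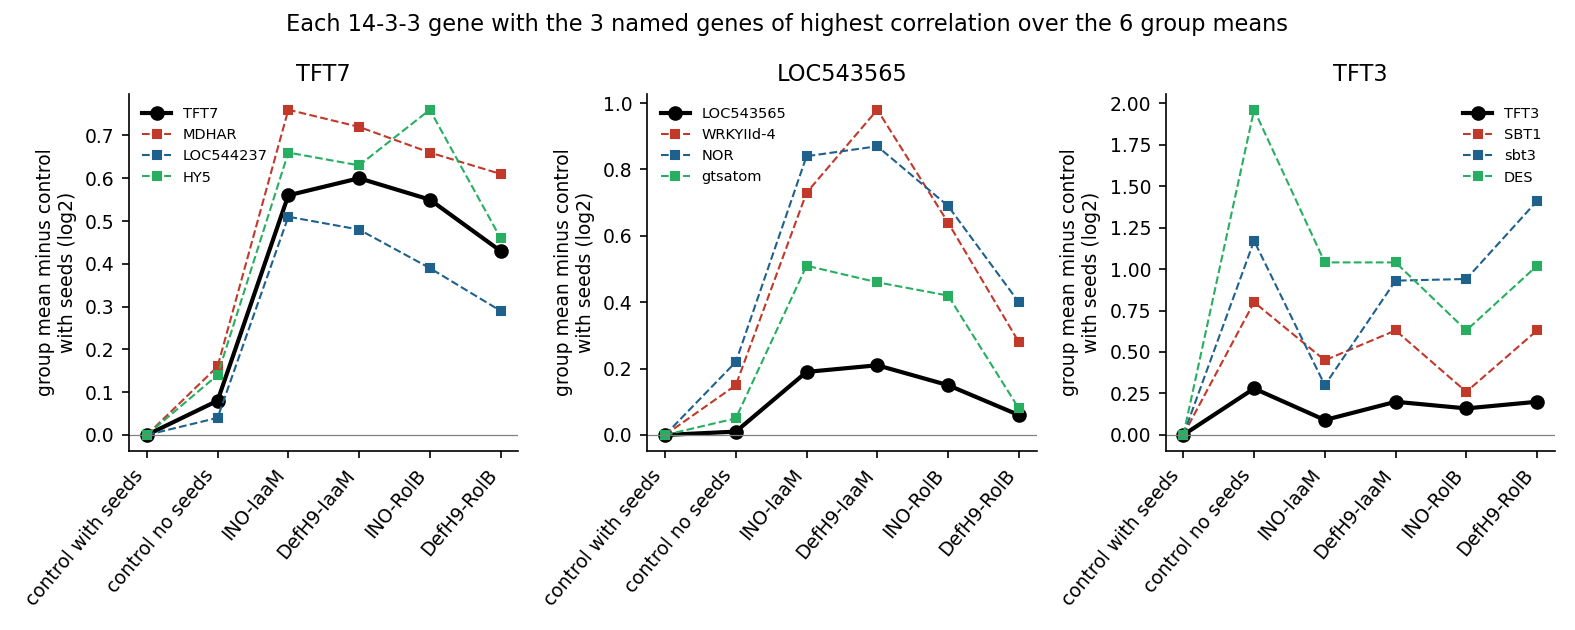
Group means minus the mean of the control with seeds, in log2 units, for each of the 3 genes (black) and the 3 named genes with the highest correlation over the 6 group means (dashed). The vertical axes differ between panels. TFT7, MDHAR, LOC544237 and HY5 step up from the controls to the lines, whereas TFT3 and the genes drawn with it are lowest with seeds and differ without a common order among the lines.

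Genes of proteins that 14-3-3 proteins bind in plants, or of the complexes, cascades and families of such proteins, were taken from a list of 55 symbols, of which 28 were found as genes on the array. In the mean of the lines over the control with seeds, 2 of the 28 were called higher and 6 lower, with a median difference of -0.06 beside 0.05 over all probe sets. Against seeds removed, 1 was called higher and 6 lower, with a median of -0.24 beside 0.03. The background of higher and lower calls was 17.3% and 12.4% in the first comparison, and 8.71% and 8.43% in the second. Between the controls 0 were higher and 1, SNF4, was lower. SNF4 had been listed as known to move with seeds in these data, so its calls there and over fruit with seeds are no independent result. With the controls taken as pairs, a pairing inferred from the data, ACS1A was also called, higher without seeds (0.86, limma's adjusted p 0.0418). With the RNA quality covariate the counts fell to 0 higher and 3 lower over fruit with seeds, and to 0 higher and 2 lower over seeds removed. The calls that held in each setting run, and without any single array, were those of GAL83, SNF4 and ACS3 over fruit with seeds and of ACS3 and ACS1A over seeds removed. The filter on low values removed ACS3 and ACS1A, so these were not tested under it. Over fruit with seeds, 1 was higher and 3 were lower without the first array with seeds, and 3 were higher and 10 lower without the second DefH9-IaaM array. Over seeds removed, 0 were higher and 4 lower without the first array with seeds removed. These settings were applied to the partner genes and the genes most alike after the data had been seen. The share of all probe sets called was not counted under them. A loss of calls in the partners therefore cannot be told from a loss over the whole array.

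Among metabolic partners, SPS, which encodes the sucrose-phosphate synthase that 14-3-3 proteins bind, rose by 0.23 ± 0.05 over fruit with seeds (1.17-fold, limma's adjusted p 0.00391) and by 0.16 over seeds removed (0.0418). The call over fruit with seeds ended with the covariate alone (0.21, 0.0618), and that over seeds removed also without any 1 of most arrays. LHA2, a plasma membrane proton pump gene, rose by 0.23 ± 0.07 over fruit with seeds (0.0321) and was 0.07 above seeds removed, while its relative LHA1 was called in neither. The LHA2 call ended without any 1 of the 3 arrays with seeds (0.22 to 0.24, adjusted p 0.0800 to 0.112), without the second DefH9-RolB array (0.21, 0.0583) and with the covariate (0.28, 0.0985). The nitrogen genes gts1 and GS2, both for glutamine synthetase, were not called in these comparisons.

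Of the 4 genes around SnRK1, the plant relative of the yeast SNF1 kinase, GAL83 and SNF4 fell. GAL83, a regulatory subunit, had means of 9.0 with seeds and 8.62 with seeds removed, and of 8.20, 8.16, 7.73 and 7.65 in the lines INO-IaaM, DefH9-IaaM and INO-RolB and in DefH9-RolB. It fell by 1.06 ± 0.12 from fruit with seeds (limma's adjusted p 4.52e-05) and by 0.68 ± 0.12 from seeds removed (0.00355), and with the covariate by 0.59 without a call (0.0537). Against seeds removed, GAL83 was called in neither INO-IaaM nor DefH9-IaaM alone, where 5.74% and 4.98% of all probe sets were called. In each RolB line 1 of the 4 SnRK1 genes was called lower against seeds removed. Among the lines, GAL83 was higher in IaaM than in RolB lines by 0.49 ± 0.11 (0.0352, against a background of 2.92%).

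SNF4, another SnRK1 subunit, was also one of the seed markers. It was listed as a marker because it was known to move with seeds in these data. Its test between the controls was thus fixed in advance, and its values are given as a description. It averaged 11.63 ± 0.12 (SD, n = 3) with seeds and 8.77 ± 0.32 (SD, n = 3) with seeds removed, and so fell by 2.85 ± 0.30 when seeds were removed (limma's adjusted p 8.59e-05). The lines had group means of 7.77 to 8.26, which put them at -0.70 against seeds removed without passing the test (0.0642). SNF1, the kinase itself, and Sip1 were not called.

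Among the immune kinases, where TFT7 has its known partners, MPK3, a MAP kinase, fell by 1.2 ± 0.34 from fruit with seeds (limma's adjusted p 0.0175) and by 1.68 ± 0.34 from seeds removed (0.00633). Another of its probe sets gave -1.18 and -1.71 with calls in both, and the one left read 4.86 to 6.46, around the top of the reporter range. MKK4, a MAP kinase kinase, fell by 0.56 from seeds removed (0.0371), and CITRX, a thioredoxin of the Cf-9 resistance pathway, fell by 0.36 from fruit with seeds (0.0308). MKK2, the kinase kinase that TFT7 is known to bind, was called in 1 of the comparisons with a control, DefH9-RolB against seeds removed (-0.53 ± 0.14, 0.0359). With the covariate MPK3 read -0.86 (adjusted p 0.263) and -1.39 (0.0922), MKK4 -0.41 (0.312) and CITRX -0.20 (0.423), all without a call. The MPK3 call over fruit with seeds also ended without the first array with seeds (-1.07, 0.0874), that of CITRX without any 1 of those 3 arrays, and that of MKK4 without the first (-0.49, 0.164) or the third (-0.53, 0.141) array with seeds removed or single arrays of the lines.

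Of 5 genes for ACC synthase, which makes the precursor of ethylene, ACS3 and ACS1A fell and ACS2, ACS4 and ACS6 were not called in the mean of the lines. ACS3 averaged 7.45 with seeds and 7.96 with seeds removed, and 4.02 to 4.88 in the lines, where it reached the reporter range. Its differences of -3.01 ± 0.40 (limma's adjusted p 0.000160) and -3.52 ± 0.40 (0.000308) are therefore lower limits of the fall. ACS1A fell by 1.06 ± 0.27 (0.0113) and 1.92 ± 0.27 (0.00104), with INO-IaaM within the reporter range, so these too are lower limits. AREB1, a transcription factor of the abscisic acid response, fell by 0.38 from seeds removed (0.0278), a call that ended with the covariate (-0.35, 0.174) and without the first (-0.30, 0.159) or the second (-0.37, 0.0743) array with seeds removed. The ACS1A call over fruit with seeds ended with the covariate (-1.01, 0.123) and without the first (-0.96, 0.0615) or the second (-0.91, 0.0583) array with seeds.

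Beside MKK2, 4 more of the 28 genes were called against a control only in single lines, ACS4 higher in INO-IaaM and gts1 higher in DefH9-RolB, both against fruit with seeds, and CDPK1, a calcium-dependent kinase gene, lower in INO-IaaM against seeds removed. The last of them, the potassium channel gene LKT1, was called lower in DefH9-IaaM than in fruit with seeds (limma's adjusted p 0.0145) and also in IaaM than in RolB lines (0.0389). It lay within the reporter range on all arrays of both IaaM lines, so no size is given.

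**Figure D5:**
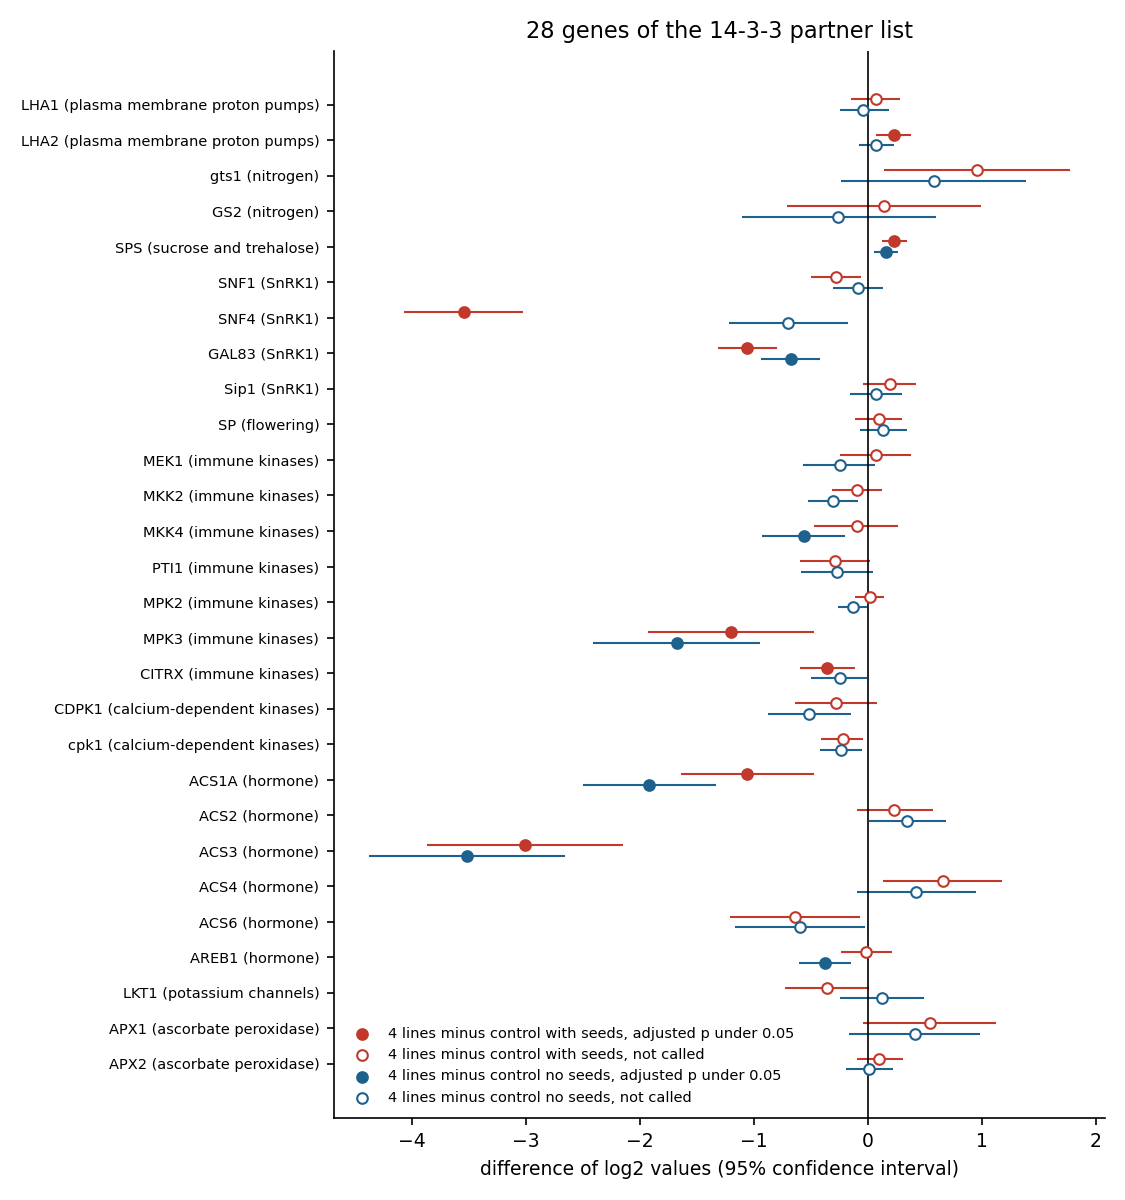
Differences of log2 values with 95% confidence intervals of the limma fit for the 28 genes of the partner list, by role, for the mean of the 4 lines minus the control with seeds (red) and with seeds removed (blue). Filled points passed the adjusted p threshold and open points did not. SNF4, ACS3, MPK3, ACS1A and GAL83 lie farthest below 0, and the called rises of SPS and LHA2 are 0.23 or less.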

How the data were processed

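RNA of 17 fruit pools was measured on Affymetrix tomato arrays. The authors deposited log2 values per probe set, made by RMA per the submitters' processing notes (version not given in the sources used here); base 2 was inferred from how far the values reach. Scanner files were not used. Of 10209 probe sets, 108 AFFX controls were left out and 10101 tested, 909 of them with 1 gene name from the platform annotation, matched by gene number to RefSeq (assembly SLM_r2.1). One mean per group was fitted by limma 3.58.1 (R 4.3.3; functions lmFit and eBayes, 11 residual and 2.56 prior degrees of freedom), in 14 contrasts, with Benjamini-Hochberg adjustment over all probe sets and a threshold of 0.05. The fit was tested on simulated data. Python 3.11.15 with pandas 2.3.3 and matplotlib 3.10.9 made the summaries and figures.

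The members and lists were chosen with earlier results of these data known. Named were the 3 genes and any other named 14-3-3 gene, genes of the partner list called against a control (at most 3 per role by p), and the 3 named genes most alike. GAL83 and LKT1 between transgenes, and uncalled list members, were named beyond that rule, after their values were seen. For genes of the list with several probe sets, the one with the highest mean was counted. Same-numbered arrays were checked as pairs by the correlation of their residuals. Among groups with 3 arrays each, the controls alone had all 3 above 0.1 (0.437, 0.478 and 0.164), so their numbers were taken to pair them. The labels do not say what a number marks. INO-IaaM and DefH9-RolB, with 2 such pairs, had both above 0.1 (0.334 and 0.441). The control with seeds removed and INO-RolB had 0.348 and 0.283 beside -0.0192. The check therefore does not set the controls apart, and their pairing is inferred from the data. A fit with a replicate block was an alternative, and one of the controls alone with that block was added after seeing the data. Others were a second quantile normalization, centring on the median, a filter removing the 30 percent of probe sets with the lowest means, array weights, a trended and robust eBayes, a fit of the compared groups alone, the 5' minus 3' covariate and leaving out each array; for the partner list and the genes most alike these were chosen after seeing the data. A lone array of a group was taken to vary as arrays of the other groups do. The number of arrays limits the precision.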

Additional observations from a re-analysis of the deposited data

How the results depend on the processing

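For the 3 genes, 42 differences were recomputed under 8 other settings and without each of the 17 arrays. Of 1050 values, 1005 kept their direction and their side of the threshold, 21 lost a call, 0 gained one and 24 changed sign, all of the latter without a call. The rise of TFT7 in the mean of the lines held without any single array, at 0.42 to 0.62 over fruit with seeds and 0.42 to 0.49 over seeds removed. With the 5' minus 3' covariate TFT7 lost its calls against seeds for INO-RolB (0.49, adjusted p 0.0506) and DefH9-RolB (0.35, 0.226), and against seeds removed for INO-IaaM (0.44, 0.0759), DefH9-IaaM (0.48, 0.0634), INO-RolB (0.42, 0.0992) and the mean (0.41, 0.0566). Fitted on the compared groups alone, DefH9-RolB against seeds (0.43, 0.163) and DefH9-IaaM against seeds removed (0.52, 0.107) were lost, with fewer arrays behind the spread. The cause of these and the other losses was not tested.

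Signs turned in LOC543565 between the controls (-0.02 with array weights, 0.00 with the covariate) and in DefH9-RolB against either control (-0.01 with the covariate). In TFT3 they turned for INO-IaaM against seeds (-0.02 with array weights) and, with the covariate, against seeds removed for DefH9-IaaM (0.09), INO-RolB (0.10), DefH9-RolB (0.19) and the mean (0.09).

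Without single arrays, TFT7 ranged from -0.03 to 0.16 between the controls, from 0.28 to 0.57 for DefH9-RolB against seeds and 0.20 to 0.49 against seeds removed, from -0.12 to 0.03 between promoters, and against seeds removed from 0.44 to 0.50 for INO-IaaM, from 0.47 to 0.58 for DefH9-IaaM and from 0.44 to 0.50 for INO-RolB. LOC543565 ranged from -0.08 to 0.06 between the controls, from 0.07 to 0.20 for the mean against seeds, from -0.02 to 0.13 and -0.01 to 0.13 for DefH9-RolB against seeds and seeds removed, and from -0.07 to 0.00 between promoters. TFT3 ranged from -0.09 to 0.22 for INO-IaaM and -0.02 to 0.29 for INO-RolB against seeds, from -0.22 to 0.01 for DefH9-IaaM against seeds removed, from -0.01 to 0.29 for the mean against seeds, from -0.06 to 0.03 between transgenes and from -0.03 to 0.13 in the interaction.

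Of the partner list, where these settings were chosen after seeing the data, median centring, the replicate block and the fit of the compared groups alone left 0 higher over seeds removed. The latter called 4 higher and 6 lower over fruit with seeds, the block called 3 and 6, and array weights called 3 higher and 8 lower over fruit with seeds and 1 higher and 9 lower over seeds removed. The covariate called 0 higher and 3 lower, and 0 higher and 2 lower. Without single arrays the counts ranged from 1 to 4 higher and 3 to 10 lower over fruit with seeds, and from 0 to 1 higher and 4 to 9 lower over seeds removed. The share of all probe sets called was not counted in these settings.

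The replicate block changed no call of the 3 genes: TFT7 stayed at 0.54 (adjusted p 0.000720) and 0.46 (0.00482) in the mean of the lines and at 0.08 (0.777) between the controls. Nor did a fit of the controls alone as pairs, with adjusted p of 0.643 for TFT7, 0.981 for LOC543565 and 0.137 for TFT3, and over all probe sets it called 148 higher and 292 lower without seeds, beside 103 and 334, and 46 and 193 for the controls alone without the block.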

Other observations

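Some probe sets repeat the same value on several arrays at the deposited precision. To all deposited digits, LOC543565 had the same value, near 12.32, on 3 arrays. For tft4 the value near 12.78 came on 5 arrays, while TFT7 and TFT3 had no repeated value. The values printed above are rounded and coincide more often. Of all probe sets tested, 2320 (23.0%) had a repeated value, among them 64.4% of the 1011 probe sets with the lowest means and 14.8% of the 1010 with the highest.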
